A study of Mus musculus with 16 samples.

Results

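RNA-seq of injured flexor tendon was compared between 2 mouse strains at 7 days post-injury (dpi). The comparison used 8 of the 16 libraries of the series, 4 from C57BL/6J (C57) mice and 4 from MRL/MpJ (MRL) mice, and these were taken as all libraries that the labels give as 7 days post injury, with no uninjured tendon among them. C57 is the common inbred laboratory strain, and MRL is an inbred strain known for closing ear, skin and other wounds with little scar. In both groups the deep digital flexor tendon of the third hind-paw digit of adult male mice was partly cut, no allele was engineered and no test agent was compared. All mice had anaesthesia for surgery and buprenorphine against pain, by the study's methods. Each library came from the tissue at the injury site, and the study's methods state that RNA was isolated from single tendons and that the sheath and the tissue around the tendon were not removed. Strain and everything bred with it cannot be told apart, because each strain is a single inbred line.

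Values are given as CPM, counts scaled to a common library total after TMM adjustment. Where 4 values follow each other for a group, C57 values stand in the order BI-181, BI-183, BI-184, then BI-185, and MRL values in the order BI-270, BI-272, BI-274, then BI-275. These library names are the only names the labels give, and nothing in them numbers or pairs the animals. The C57 libraries held 12883569 to 16579900 counts and the MRL libraries 18524170 to 23741648, so that the MRL tendons were sequenced more deeply. Depth and strain cannot be told apart, and thinning all libraries to the smallest gave 543 calls where the full counts gave 502. A count of 3, used as the floor of detection, corresponded to 0.128 to 0.221 CPM. The study's methods give 4 animals per group, the labels themselves name no animals, and the p-values measure the spread between these 8 libraries.

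Tendon is a collagen cable kept by tenocytes, fibroblasts that depend on the transcription factor scleraxis. After a cut, cells of the sheath and of the tendon divide and lay down provisional matrix, macrophages clear debris, vessels and nerves grow in, and contractile myofibroblasts that express smooth muscle actin can leave a scar. At about a week these processes run side by side. In bulk tissue, fewer cells of a type and less RNA per cell cannot be told apart, and this holds for every value below.

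The libraries were first checked against their labels. The tenocyte list of 20 genes summed to 44845, 73346, 67446 and 80259 CPM in the C57 libraries and 117859, 107735, 122405 and 75412 CPM in the MRL libraries, so all 8 samples carried tendon transcripts. At strain loci, Ifi202b, an interferon-inducible gene that C57 mice barely express, was at 0, 0, 0 and 0.368 CPM in C57 against 23.3, 14.1, 12.9 and 30.9 CPM in MRL. H2-Ea-ps, the remnant of an MHC class II gene that C57 mice lack, was at 0 CPM throughout in the C57 and at 4.62, 0, 1.13 and 4.03 CPM in the MRL libraries. Nnt, a mitochondrial transhydrogenase from which C57BL/6J lacks several exons, was at 37.3, 21.6, 19.5 and 12.3 CPM in C57 and at 47, 50.7, 44.4 and 13.9 CPM in MRL tendons, where the groups overlapped. Counts on its remaining exons check nothing. No library was at odds with its strain label at Ifi202b.

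Skeletal muscle was the transcript class that set 1 library apart. The 40 muscle genes (sarcomere proteins, calcium handling and muscle metabolism) summed to 125825, 3622, 31.7 and 49.2 CPM in the C57 libraries and 65.1, 30.8, 50.6 and 31.6 CPM in the MRL libraries. They took 11.6% of all counts in BI-181, 0.377% in BI-183 and at most 0.00641% in any of the other 6 libraries. Acta1, the actin of skeletal muscle fibres, was at 26523, 797, 0 and 0.736 CPM in C57 against 0, 0, 0.0454 and 0.112 CPM in MRL, and Tnnt3, a troponin of fast fibres, was at 9546, 247, 1.25 and 3.24 CPM in the C57 and at 1.76, 0.321, 0.363 and 0.336 CPM in the MRL libraries. BI-181 was thus rich in muscle, BI-183 carried a smaller amount, and no MRL library carried a comparable one. BI-181 also had the highest sum of adipocyte genes (7517 CPM against 229 to 718 CPM in the other C57 libraries), to which Car3, shared by fat and muscle, contributed 7012 CPM. Its glycolysis list summed to 23741 CPM, against 5182 to 6571 CPM in the other C57 tendons. Its tenocyte and matrix sums were the lowest of the 8 libraries. Genes whose call or fold change depended on this library are described further on.

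**Figure D1:**
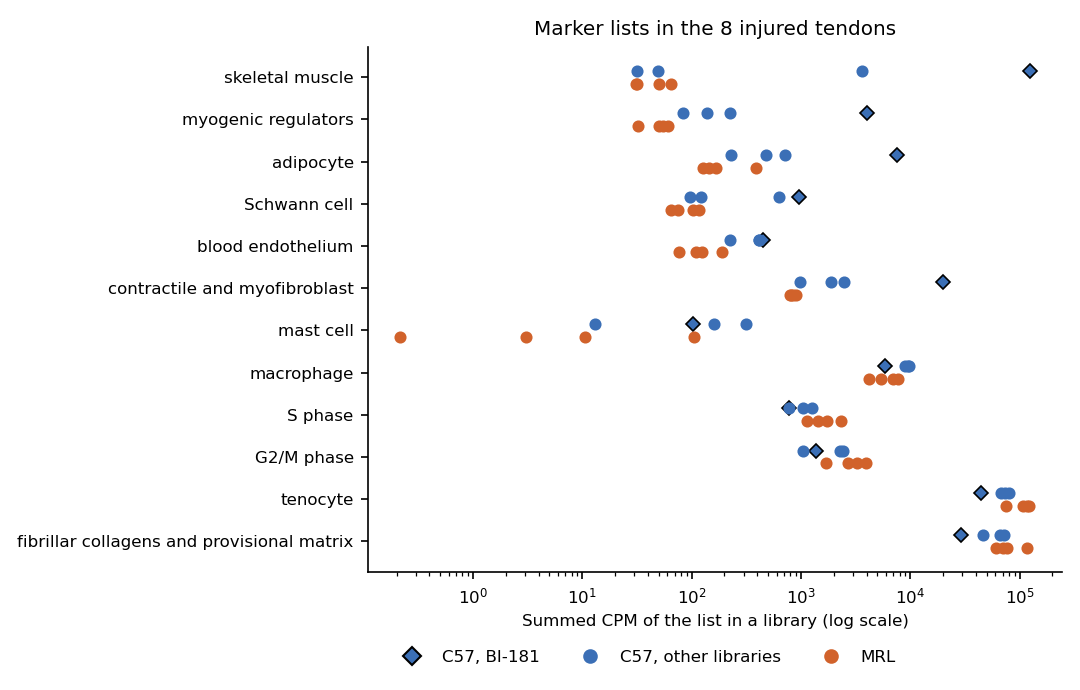
Summed CPM of 12 marker lists in each library (log axis), with C57 libraries in blue, MRL libraries in orange and BI-181 as an outlined diamond. The muscle sum of BI-181 is 125825 CPM, against 30.8 to 65.1 CPM in MRL tendons, whereas the endothelial and contractile sums of all C57 libraries lie above those of MRL. Of the Schwann cell sums, those of BI-181 and BI-185 lie clearly above MRL.

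In the comparison of injured MRL with injured C57 tendon, 14626 genes were tested and 502 were differentially expressed genes (DEG), defined by an adjusted p under 0.05 in edgeR's quasi-likelihood test and an absolute log2 fold change over 1. This was 3.43% of tested genes. 227 genes were higher in MRL (1.55%) and 275 were lower (1.88%). In 499 of the 502 DEG the 4 C57 and the 4 MRL values did not overlap, against 2342 of all 14626 tested genes (16%), and 6672 tested genes (45.6%) had positive fold changes. Non-overlap was thus the rule among DEG and a condition for naming some of them. It adds no support to the calls named below. Positive log2 fold changes are higher in MRL throughout, and the median over all tested genes was -0.06. With DESeq2, 1490 genes were called by the same criteria, 497 of the 502 among them. Of 26473 genes with a p-value it called 575 higher and 915 lower, so its counts for the lists below stand against a larger total. Without scaling beyond total counts, the median moved to -0.2 and the split was 183 higher and 373 lower.

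The calls differed in kind between the directions. By the GENCODE annotation, 142 of the genes higher in MRL were protein coding and 70 were pseudogenes, whereas 251 of the genes lower in MRL were protein coding and 4 were pseudogenes. Of 317 pseudogenes tested, 22.1% were called higher in MRL, against 1.12% of protein-coding genes. 64 of the 70 matched the transcript of a protein-coding gene at 90% identity or more over at least 80% of their length, with a median identity of 98.8%. Among the 243 pseudogenes without a call, 169 had such a partner, with a median identity of 98.7%. Without BI-181, 61 pseudogenes were called higher and 3 lower. At the median identity a copy differs from its partner at about 1 base in a read of 100 bases. The reads were mapped to the mouse reference genome, which is that of C57BL/6J, and the part of read assignment in these calls was not tested.

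3 pairs are shown because their counts changed places between the strains. Each stretch is 100 bases of transcript from the reference (GENCODE M21, GRCm38), 5′ to 3′ and inside the coding sequence of the partner, with the bases at which copy and partner differ in capitals. Gm15772 (chr5:3236431-3236868) is a processed copy of Rpl26 (chr11:68901583-68906989), a protein of the large ribosomal subunit. AK157302 (chr13:21495223-21497146) is a copy of Isca1 (chr13:59755409-59769810, minus strand), which assembles mitochondrial iron-sulphur clusters. Gm28438 (chr1:24612775-24613119, minus strand) is a nuclear copy of the mitochondrial gene mt-Nd3 (chrM:9459-9806), a subunit of respiratory complex I.
Gm15772: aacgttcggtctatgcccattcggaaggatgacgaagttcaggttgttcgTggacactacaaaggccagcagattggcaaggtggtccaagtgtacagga
Rpl26: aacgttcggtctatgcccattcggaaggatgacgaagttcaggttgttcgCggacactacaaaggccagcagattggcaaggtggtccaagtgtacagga
AK157302: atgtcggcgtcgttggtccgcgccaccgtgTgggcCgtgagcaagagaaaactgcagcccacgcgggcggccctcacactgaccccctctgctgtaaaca
Isca1: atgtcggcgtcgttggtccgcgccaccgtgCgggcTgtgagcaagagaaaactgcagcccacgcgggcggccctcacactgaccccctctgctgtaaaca
Gm28438: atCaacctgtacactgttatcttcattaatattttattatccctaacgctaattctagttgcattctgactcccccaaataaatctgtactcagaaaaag
mt-Nd3: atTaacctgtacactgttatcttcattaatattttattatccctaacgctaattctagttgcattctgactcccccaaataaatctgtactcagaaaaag

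Gm15772 and Rpl26 differed at 2 of 438 aligned bases. The copy was at 0.13, 0.0634, 0.198 and 0.221 CPM in C57 and at 63.6, 80.9, 61.7 and 138 CPM in MRL tendons, and Rpl26 was at 117, 109.5, 149 and 110.2 CPM in C57 against 21.1, 27.4, 18.7 and 42 CPM in MRL. Gm15772 was called higher in MRL and Rpl26 lower (log2 fold change -2.16 ± 0.27, adjusted p = 0.00269), while their summed counts, with those of the copy Gm10136, came to 122 ± 18.8 CPM in C57 and 114 ± 46.8 CPM in MRL tendons (SD, n = 4 each, log2 fold change -0.09, adjusted p = 0.878). AK157302 was at 0.13, 0, 0 and 0 CPM in the C57 and at 28.9, 25.1, 21.1 and 26.2 CPM in the MRL libraries, and Isca1 was at 128, 38.5, 32.9 and 42.4 CPM in C57 and at 14.9, 14.3, 13 and 14.8 CPM in MRL tendons. Both were called, in opposite directions, and the sum of the pair was not (log2 fold change -0.6, adjusted p = 0.424). mt-Nd3 was at 6.65, 3.05, 5.21 and 4.12 CPM in C57 against at 0 CPM throughout in MRL, and Gm28438, which differs from it at 1 of 345 bases, was at 0, 0, 0 and 0.0736 CPM in the C57 and at 5.87, 5.82, 4.44 and 10.5 CPM in the MRL libraries. Their sum had a log2 fold change of 0.49 (adjusted p = 0.569).

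**Figure D2:**
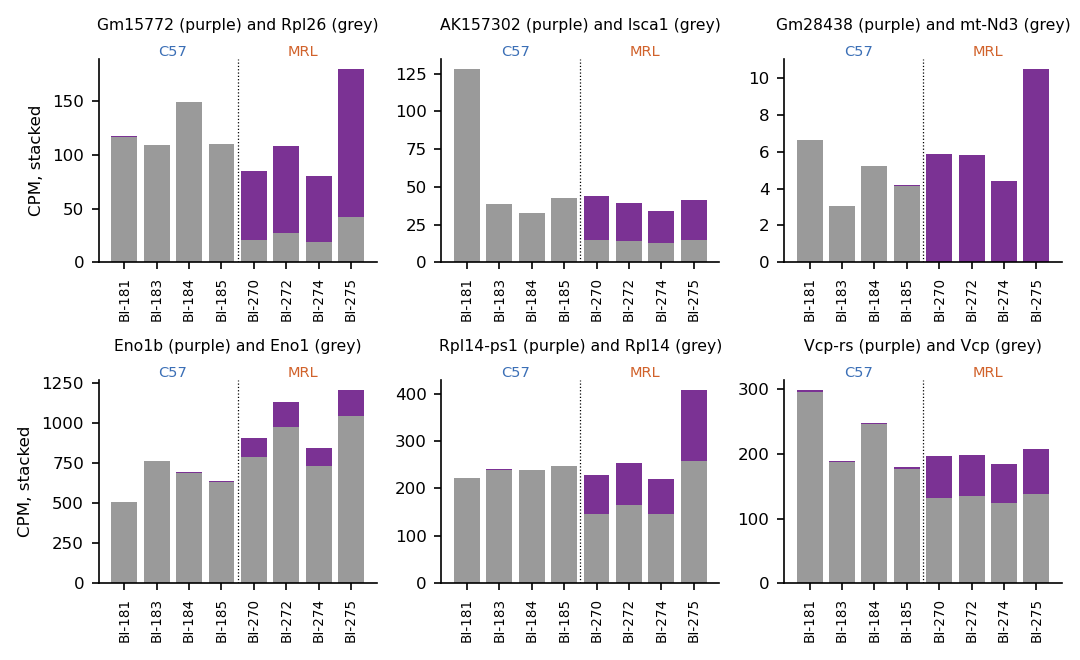
Stacked CPM of 6 copies (purple) and their protein-coding partners (grey) in each library, C57 left and MRL right of the dotted line. The copies hold next to nothing in C57 and a visible share in every MRL library, up to all counts of the mt-Nd3 pair, while the height of the stack differs less.

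The same was done for all copies. 104 of the 502 DEG, 80 of them higher in MRL, had a partner at this identity, and they fell into 81 sets of near-identical genes. When the counts of each set were summed and the test was repeated, 7 of the 81 sets were called. Among these were Glo1, a glyoxalase, at 62.9 ± 8.69 against 162 ± 7.5 CPM (SD, adjusted p = 0.00454), Wtap, a part of the RNA methylation complex, at 26.1 ± 2.61 against 72.2 ± 12 CPM (adjusted p = 0.00598), and Ywhaz, a phosphoserine-binding protein, at 352 ± 40.2 against 134 ± 21.1 CPM (adjusted p = 0.00598). The 4 others were the sets of Ckb, Rpl29, H2-Q2 and Serpina3e-ps. The smallest adjusted p of all DEG belonged to genes of such sets: Eno1b, an intronless copy of the glycolytic enzyme Eno1, was at 1.17, 1.27, 2.05 and 2.36 CPM in C57 and at 119.6, 156, 116 and 163 CPM in MRL tendons, and Vcp-rs, a copy of the segregase Vcp, was at 2.67, 1.27, 1.45 and 1.84 CPM in C57 against 66.3, 63.3, 60.1 and 69.2 CPM in MRL. Their partners differed by 0.45 (Eno1, adjusted p = 0.243) and -0.78 (Vcp, adjusted p = 0.054) on the log2 scale, and neither was called. Calls of Hba-a2 (partner Hba-a1), Acaa1b (Acaa1a), C1rb (C1ra) and Zfp984 (Gm13212) are of this kind too, and are uncertain for the same reason. Their summed log2 fold changes were -1.13 (adjusted p = 0.507), -0.69 (adjusted p = 0.105), -0.18 (adjusted p = 0.851) and -2.7 (adjusted p = 0.169). None of these sums was called. In all, 350 genes or sets were called after summing, and 340 of the 398 DEG without such a partner were among them.

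Chil1, a chitinase-like glycoprotein secreted by macrophages and chondrocytes (chr1:134182176-134190181), was at 9.26, 14.9, 3.76 and 19.7 CPM in the C57 and at 1089.7, 262, 1408 and 4184 CPM in the MRL libraries. The lowest MRL value lay above the highest C57 value (log2 fold change 7.19 ± 0.96, adjusted p = 0.00457, n = 4 each). Pla2g2a, a secreted phospholipase whose gene is disrupted in C57 mice and which the annotation lists as a pseudogene (chr4:138831857-138835186), was at 21.6, 66.7, 35 and 38.1 CPM in C57 and at 1585, 4545, 6635 and 3699 CPM in MRL tendons (log2 fold change 6.67 ± 0.56, adjusted p = 0.000226). Hal, the enzyme that opens histidine breakdown, was at 0, 0, 0 and 1.1 CPM in C57 against 102, 43.9, 109 and 40.7 CPM in MRL, with 3 C57 libraries at 0 (log2 fold change 8.12 ± 1.05, adjusted p = 0.00392). Acaa1b, a peroxisomal thiolase, was at 0 CPM throughout in the C57 and at 14.8, 6.56, 7.71 and 7.06 CPM in the MRL libraries, at least 44.9-fold higher in MRL against a floor of 3 counts per library. H2-Q2, an MHC class I gene of the Qa region, was at 0.0652, 0.19, 0 and 0 CPM in C57 and at 13.9, 7.93, 10.6 and 4.43 CPM in MRL tendons, at least 45.7-fold higher by the same floor. C1rb, a paralogue of the complement protease C1r, was at 0.13, 0, 0 and 0 CPM in C57 against 4.92, 1.74, 32.1 and 2.63 CPM in MRL, at least 51.5-fold higher, and R3hdml, a putative secreted protease inhibitor, was at 0, 0, 0 and 0.295 CPM in the C57 and at 1.16, 18.8, 2.81 and 7.34 CPM in the MRL libraries (log2 fold change 6.63 ± 1.38, adjusted p = 0.0281). Hebp1, a small haem-binding protein, had one of the steadiest differences, being at 4.96, 6.6, 4.22 and 6.92 CPM in C57 and at 33.8, 23.2, 24.5 and 32.4 CPM in MRL tendons (log2 fold change 2.33 ± 0.27, adjusted p = 0.00183). Ptprv, a receptor phosphatase, was higher in MRL by at least 27.5-fold. The calls of Chil1, Pla2g2a, Hal, Ifi202b, Acaa1b, H2-Q2, Hebp1 and Ptprv held whichever of the 8 libraries was left out. Summed with their partners, Acaa1b and C1rb were not called, which leaving out a library does not address. The call was lost for C1rb without BI-181, BI-183 or BI-185 (adjusted p from 0.0514 to 0.0588) and for R3hdml without any C57 library, BI-272 or BI-275 (adjusted p from 0.0502 to 0.086). A single library moved the difference by over 1.5 times, to a log2 fold change of 6.32 for Chil1 without BI-275, at least 15.4-fold for C1rb without BI-274 and a log2 fold change of 5.67 for R3hdml without BI-272. BI-185 held the only C57 counts above the floor for R3hdml, Hal and Ifi202b, and without it they were at least 38.6-fold, 379.6-fold and 104-fold higher in MRL.

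Among genes lower in MRL, several were not detected there. Hba-a2, an alpha globin, was at 22.5, 12.9, 87.3 and 40.5 CPM in C57 against at 0 CPM throughout in MRL, whereas its near-identical partner Hba-a1 was at 32.9, 18.1, 113 and 53.2 CPM in C57 and 7.07, 118, 26.3 and 22.4 CPM in MRL tendons. Trim12a, of the antiviral TRIM family, was at 6.06, 10.7, 11.2 and 19.8 CPM in the C57 and at 0 CPM throughout in the MRL libraries, at least 83.6-fold lower in MRL. Rab6b, a Golgi trafficking GTPase most abundant in neurons, was at 7.95, 11.5, 7.92 and 17.6 CPM in C57 and at 0 CPM throughout in MRL tendons, at least 79-fold lower, and Zfp984, a zinc finger gene with a close copy that makes its call uncertain, was at 3.52, 7.74, 10.1 and 8.91 CPM in C57 against 0.0428, 0, 0.0454 and 0.056 CPM in MRL, at least 53.1-fold lower. Stk25, a kinase of the Golgi and of cell polarity (chr1:93619751-93658659), was at 129, 169, 124 and 173 CPM in the C57 and at 8.22, 3.3, 5.31 and 8.63 CPM in the MRL libraries (log2 fold change -4.55 ± 0.33, adjusted p = 7.44e-05). Nid1, a basement membrane glycoprotein that links laminin and collagen IV (chr13:13437551-13512269), was at 70.4, 111, 101 and 86.2 CPM in C57 and at 25.1, 22.5, 25.1 and 27.4 CPM in MRL tendons (log2 fold change -1.88 ± 0.19, adjusted p = 0.000697). Mocs1, of molybdenum cofactor synthesis, was at 33.5, 19.9, 15.2 and 28.1 CPM in C57 against 0.728, 0.963, 0.363 and 1.06 CPM in MRL (log2 fold change -4.95 ± 0.45, adjusted p = 0.000371). Fmo2, a flavin monooxygenase, was at 33.2, 10.6, 19.9 and 33.9 CPM in the C57 and at 0, 0.275, 1.45 and 0 CPM in the MRL libraries (log2 fold change -5.78 ± 1.12, adjusted p = 0.0213). The C57 and MRL values of these 8 genes did not overlap, which was a condition for naming Hba-a2, Trim12a, Rab6b, Zfp984 and Fmo2. In Stk25 and Nid1 the spread within each strain was small beside the difference. The calls of Hba-a2, Trim12a, Rab6b, Zfp984, Stk25, Nid1 and Mocs1 held whichever of the 8 libraries was left out. For Hba-a2 and Zfp984, leaving out a library does not address how reads were shared with their copies. A call was no longer made for Fmo2 without BI-185 or BI-272 (adjusted p from 0.0693 to 0.0859). The size of the difference also rested on 1 library, being at least 177-fold for Hba-a2 without BI-184 and a log2 fold change of -7.85 for Fmo2 without BI-274.

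**Figure D3:**
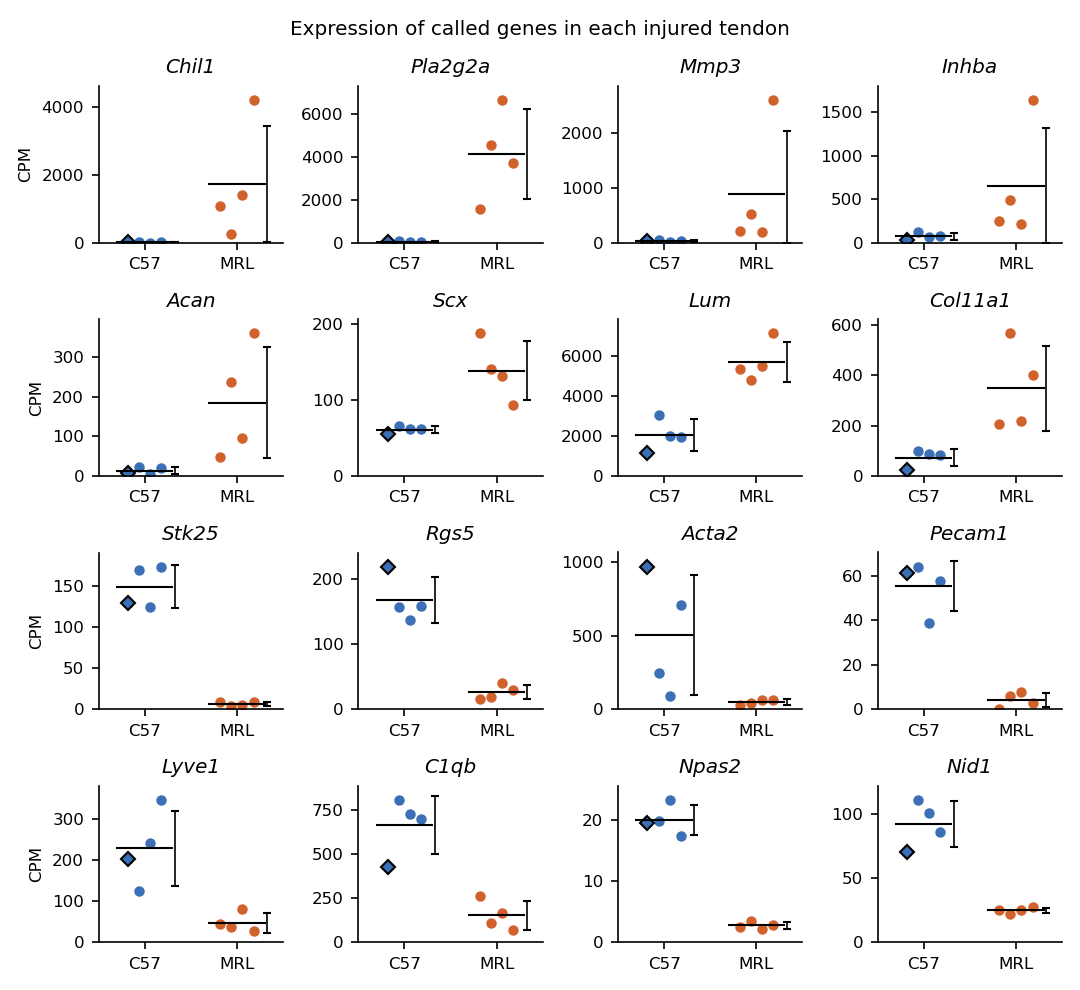
CPM of 16 called genes in each library (points), with the group mean (line) and SD (bar beside the points, cut at 0). BI-181 is the outlined diamond: it is the highest C57 value for Acta2 and Rgs5 and the lowest for Scx, Lum, Col11a1 and C1qb. In all 16 genes the strains stand apart, as in 499 of the 502 DEG.

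The calls among tendon fibroblast genes were higher in MRL. All 20 tenocyte genes were tested, and by edgeR 2 were called higher in MRL and none lower (DESeq2 called 3 higher and 0 lower). EdgeR called 1.55% of all tested genes higher and 1.88% lower. The list's median log2 fold change was 0.74, against -0.06 over all tested genes. Scx, the scleraxis gene (chr15:76457452-76459458), was at 54.7, 65.5, 61.6 and 61.7 CPM in C57 and at 187, 141, 131 and 92.7 CPM in MRL tendons (log2 fold change 1.18 ± 0.21, adjusted p = 0.0162). Lum, the collagen-binding proteoglycan lumican (chr10:97565128-97572703), was at 1152, 3066, 2009 and 1920.1 CPM in C57 against 5339, 4794, 5478 and 7111 CPM in MRL (log2 fold change 1.48 ± 0.3, adjusted p = 0.0258). In both genes every MRL tendon exceeded every C57 tendon. Tnmd, the membrane glycoprotein of mature tenocytes, was at 101, 122, 89.8 and 161 CPM in the C57 and at 629, 80.5, 84.9 and 33.1 CPM in the MRL libraries, so that only BI-270 stood above C57, and Mkx, a second tendon transcription factor, was at 25, 51.9, 77.9 and 56.7 CPM in C57 and at 129, 116, 87.1 and 48.8 CPM in MRL tendons. Neither Tnmd (log2 fold change 0.81 ± 0.81, adjusted p = 0.618) nor Mkx (log2 fold change 0.85 ± 0.37, adjusted p = 0.223) was called. Without BI-181 the same 2 genes were called and the list's median was 0.59. Leaving out 1 library ended the call for Scx without BI-185 (adjusted p = 0.0608) and for Lum without BI-184, BI-185 or BI-272 (adjusted p from 0.0535 to 0.0892).

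All 30 collagen and provisional matrix genes were tested, and edgeR called 3 higher in MRL and 2 lower (DESeq2 called 6 and 4). The edgeR shares over all tested genes were 1.55% higher and 1.88% lower. The list's median was 0.58, against -0.06 over all tested genes. Col11a1, a chain of the fibril-nucleating type XI collagen, was at 25.3, 97.1, 86.6 and 83.4 CPM in C57 against 208, 566, 220.1 and 399.9 CPM in MRL (log2 fold change 2.25 ± 0.46, adjusted p = 0.0256). Col12a1, of the fibril-associated type XII collagen, was at 66.6, 139.8, 133 and 74.7 CPM in the C57 and at 331, 307, 210.1 and 251 CPM in the MRL libraries (log2 fold change 1.41 ± 0.28, adjusted p = 0.0233). P4ha1, the prolyl hydroxylase that stabilises the collagen helix, was at 105, 189, 135 and 157 CPM in C57 and at 326, 477, 313 and 359 CPM in MRL tendons (log2 fold change 1.33 ± 0.22, adjusted p = 0.0121). These 3 were higher in every MRL tendon. In the other direction, Loxl1, a crosslinking enzyme of elastin, was at 79.9, 218, 88.1 and 119.7 CPM in C57 against 33.6, 35.4, 44.2 and 32.3 CPM in MRL (log2 fold change -1.8 ± 0.31, adjusted p = 0.0136), and Col4a2, of basement membrane collagen, was at 114, 127, 95.5 and 133 CPM in the C57 and at 54.3, 66.7, 49.5 and 41.9 CPM in the MRL libraries (log2 fold change -1.14 ± 0.19, adjusted p = 0.0116). The abundant collagens of scar were not called. Col1a1 averaged 7976 ± 3105 CPM in C57 tendons and 12405 ± 5143 CPM in MRL tendons (SD, n = 4 each), with a log2 fold change of 0.64 ± 0.38 (adjusted p = 0.361), and that of Col3a1 was 0.42 ± 0.42 (adjusted p = 0.616). Fn1, fibronectin, was at 2559.9, 6239.6, 6175 and 5352 CPM in C57 and at 2894, 6866, 3036 and 7662 CPM in MRL tendons, with a difference of 0.01 ± 0.4 (adjusted p = 0.992). The same 5 genes were called without BI-181, with a list median of 0.38. The call of P4ha1 held whichever of the 8 libraries was left out. With 1 library fewer, no call was made for Col11a1 without BI-183, BI-184, BI-185, BI-272 or BI-275 (adjusted p from 0.0556 to 0.075), for Col12a1 without BI-185 or BI-272 (adjusted p from 0.0627 to 0.0797) and for Loxl1 without BI-272 (adjusted p = 0.0549). In refits on 7 libraries the call ended for Col4a2 without BI-275 (log2 fold change -0.99 without BI-275).

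The edgeR calls among cartilage matrix and remodelling genes were higher in MRL too, while other members of both lists went the other way. Of 18 cartilage and bone genes, 12 were tested, and edgeR called 2 higher in MRL and none lower (DESeq2 called 6 and 0). By edgeR, 1.55% of all tested genes were called higher. Fold changes were positive in 7 of the 12 genes (median 1.37). The list's sums overlapped, at 9298 to 20837 CPM in C57 and 10893 to 44558 CPM in MRL. Acan, the aggregating proteoglycan of cartilage, was at 6.59, 22.2, 4.42 and 20.8 CPM in C57 against 49, 238, 95.1 and 359.9 CPM in MRL (log2 fold change 3.78 ± 0.75, adjusted p = 0.0272), and Hapln1, which links it to hyaluronan, was at 9.78, 9.33, 11.2 and 15 CPM in the C57 and at 45.1, 139, 71.9 and 283 CPM in the MRL libraries (log2 fold change 3.57 ± 0.53, adjusted p = 0.00666). Sox9, the transcription factor upstream of both, averaged 61.5 ± 23.9 CPM in C57 tendons and 160.2 ± 65.9 CPM in MRL tendons (SD, n = 4 each) and was not called (log2 fold change 1.38 ± 0.39, adjusted p = 0.084). Of 25 proteases and inhibitors tested, only the stromelysin Mmp3 was called by edgeR, whereas DESeq2 called 4 higher and 1 lower. By edgeR, 3.43% of all tested genes were called. Fold changes were positive in 12 of the 25 (median -0.07). Mmp3 was at 23.2, 51.6, 19.1 and 24.5 CPM in C57 and at 212, 517, 203 and 2596 CPM in MRL tendons (log2 fold change 4.9 ± 0.94, adjusted p = 0.0258), with BI-275 far above the other MRL tendons. The calls of Acan and Mmp3 were lost without BI-181, with fold changes of 3.55 and 4.79 and a cartilage list median of 1.29. The call of Hapln1 held whichever of the 8 libraries was left out. Among the refits, the call disappeared for Acan without BI-181, BI-184, BI-185, BI-272 or BI-275 (adjusted p from 0.0514 to 0.0755) and for Mmp3 without BI-181, BI-184, BI-185 or BI-272 (adjusted p from 0.0501 to 0.0892). By leaving out 1 library the size moved by over 1.5 times, to a log2 fold change of 2.97 for Hapln1 without BI-275 and a log2 fold change of 3.45 for Mmp3 without BI-275.

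In the TGF-beta pathway, which drives fibroblast activation and scar in tendon, a ligand subunit and a protein that holds the latent ligand were called. All 26 genes of the pathway were tested, and edgeR called 1 higher in MRL and 1 lower (DESeq2 called 1 and 2). By edgeR, 1.55% of all tested genes were called higher and 1.88% lower, so these counts say little about the pathway. The median was 0 (-0.12 without BI-181). Inhba, the subunit of activin A, was at 28.2, 119, 60.9 and 79 CPM in C57 against 253, 495, 209.7 and 1634 CPM in MRL (log2 fold change 3.17 ± 0.72, adjusted p = 0.0423). Lrrc32, which tethers latent TGF-beta to the cell surface, was at 34.3, 59.1, 43.8 and 30.5 CPM in the C57 and at 1.41, 7.84, 5.76 and 3.14 CPM in the MRL libraries (log2 fold change -3.21 ± 0.49, adjusted p = 0.00792). Every MRL tendon was above C57 for Inhba and below it for Lrrc32. The ligand Tgfb1 was at 52.5, 80.5, 52.2 and 66.3 CPM in C57 and at 48.2, 104, 79.1 and 60.1 CPM in MRL tendons (log2 fold change 0.21 ± 0.26, adjusted p = 0.69), with overlapping groups. The call of Lrrc32 held whichever of the 8 libraries was left out. Refits without 1 library lost the call for Inhba without any C57 library, BI-272 or BI-275 (adjusted p from 0.0502 to 0.116). Moves of over 1.5 times from 1 library were to a log2 fold change of 2.21 for Inhba without BI-275.

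The calls among genes of vessels, mural cells and nerve were all lower in MRL. All 14 endothelial genes were tested, and edgeR called none higher in MRL and 4 lower (DESeq2 called 0 and 10). Over all tested genes edgeR called 1.88% lower, and 45.6% had positive fold changes. All 14 endothelial fold changes were negative (median -2.94). The list summed to 446, 416, 225 and 416 CPM in the C57 libraries and 77.4, 125, 188 and 109 CPM in the MRL libraries. Pecam1, the junctional CD31 antigen, was at 61.2, 64.2, 38.8 and 57.9 CPM in C57 against 0.0856, 5.78, 7.76 and 2.91 CPM in MRL (log2 fold change -3.75 ± 0.83, adjusted p = 0.0389), Esam was at 63.9, 53.7, 16.3 and 38.2 CPM in the C57 and at 4.03, 5.87, 9.16 and 2.02 CPM in the MRL libraries (log2 fold change -3.03 ± 0.53, adjusted p = 0.0137), Egfl7 had -3.04 ± 0.61 (adjusted p = 0.0248) and the tight junction gene Cldn5 -5.24 ± 1.18 (adjusted p = 0.0394). Each C57 value of these genes exceeded each MRL value. Without BI-181 only Esam was called (-2.77, adjusted p = 0.0325), while the list's median was -2.68, and -2.59 without BI-181 and BI-183. Not every refit kept the call, which was lost for Pecam1 without any C57 library, BI-272, BI-274 or BI-275 (adjusted p from 0.0589 to 0.124), for Esam without BI-272 (adjusted p = 0.0511) and for Egfl7 without BI-181, BI-183, BI-185, BI-272 or BI-274 (adjusted p from 0.0525 to 0.0836). On 7 libraries there was no call for Cldn5 without any single library (adjusted p from 0.0509 to 0.0995). A single library moved the difference by over 1.5 times, to a log2 fold change of -6.41 for Cldn5 without BI-272.

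All 16 contractile and myofibroblast genes were tested, and edgeR called none higher in MRL and 4 lower (DESeq2 called 0 and 8). The edgeR share called lower over all tested genes was 1.88%. Again all 16 fold changes were negative (median -3.33). The sums were 19762, 1890.2, 979 and 2500.3 CPM in the C57 libraries and 790, 910.3, 818 and 855 CPM in the MRL libraries, the largest of them in BI-181. Rgs5, a regulator of G protein signalling that marks pericytes, was at 219, 157, 137 and 159 CPM in C57 and at 16.2, 19.2, 40.3 and 29.6 CPM in MRL tendons (log2 fold change -2.67 ± 0.31, adjusted p = 0.00169). Acta2, smooth muscle actin and the usual marker of myofibroblasts, was at 969, 248, 92.9 and 712 CPM in C57 against 27.1, 40.2, 62 and 65.2 CPM in MRL (log2 fold change -3.38 ± 0.67, adjusted p = 0.0258). Mcam, the CD146 antigen of pericytes and endothelium, was at 52.7, 35.9, 4.95 and 48.2 CPM in the C57 and at 0.3, 0, 1.18 and 1.06 CPM in the MRL libraries (log2 fold change -5.8 ± 1.01, adjusted p = 0.0146), and Notch3, the Notch receptor of mural cells, was at 14.2, 15.4, 2.31 and 17.1 CPM in C57 and at 0.728, 0.734, 1.81 and 1.9 CPM in MRL tendons (log2 fold change -3.24 ± 0.66, adjusted p = 0.0272). BI-184 was the lowest C57 library for Acta2, Mcam and Notch3. Without BI-181 the call of Notch3 was lost (adjusted p = 0.055), those of the other 3 remained, and Acta2 had a log2 fold change of -2.85. The median of the list was -2.81 then, and -2.94 without BI-181 and BI-183. The call of Rgs5 held whichever of the 8 libraries was left out. Some refits on 7 libraries made no call for Acta2 without BI-185 or any MRL library (adjusted p from 0.0619 to 0.092), for Mcam without BI-270 or BI-275 (adjusted p from 0.0519 to 0.0534) and for Notch3 without BI-181, BI-183, BI-185, BI-270, BI-272 or BI-274 (adjusted p from 0.0507 to 0.0851).

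The Schwann cell list summed to 963, 121, 96.5 and 634 CPM in the C57 libraries and 65, 118, 104 and 75.8 CPM in the MRL libraries, with BI-181 and BI-185 above the rest. Of 12 Schwann cell genes, 10 were tested, and edgeR called none higher in MRL and 3 lower (DESeq2 called 0 and 8). The edgeR share called lower over all tested genes was 1.88%. All fold changes of the list were negative (median -4.41). Sox10, the transcription factor of neural crest glia, was at 11.9, 1.08, 1.12 and 10.2 CPM in C57 against 0.0428, 0, 0.272 and 0 CPM in MRL (log2 fold change -6.12 ± 1.35, adjusted p = 0.0349), Prx, periaxin of the myelin sheath, was at 79, 1.84, 2.05 and 36.4 CPM in the C57 and at 0.899, 0.183, 0.771 and 0.28 CPM in the MRL libraries (log2 fold change -5.77 ± 1.32, adjusted p = 0.0458), and Gfra3, the artemin receptor, was at 2.35, 2.16, 0.858 and 2.8 CPM in C57 and at 0 CPM throughout in MRL tendons, at least 14.3-fold lower in MRL. Kcna1, a voltage-gated potassium channel of axons, was at 24.5, 1.27, 3.56 and 18 CPM in C57 against 0, 0.0459, 0 and 0 CPM in MRL, at least 83-fold lower. Without BI-181, Gfra3 and Kcna1 were still called and Sox10 and Prx were not, and the list's median was -3.83. The call of Kcna1 held whichever of the 8 libraries was left out. The call was lost for Gfra3 without BI-183 or BI-185 (adjusted p from 0.0532 to 0.0623), for Sox10 without BI-181, BI-185, BI-270, BI-272 or BI-275 (adjusted p from 0.0706 to 0.0977) and for Prx without BI-181, BI-185 or any MRL library (adjusted p from 0.071 to 0.141). The size of the difference also rested on 1 library, being at least 53.5-fold for Kcna1 without BI-181. BI-274 held the only MRL counts above the floor for Sox10, which was at least 42.1-fold lower in MRL without it.

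The edgeR calls among macrophage genes were lower in MRL. All 28 macrophage genes were tested, and edgeR called none higher and 5 lower, where it called 1.88% of all tested genes lower. DESeq2 called 1 higher and 8 lower. The median over the list was -0.47 (-0.58 without BI-181), with 8 of the 28 fold changes positive. The list's sums overlapped, at 5913 to 9834 CPM in C57 and 4228 to 7802 CPM in MRL. C1qb, of the complement recognition protein made by resident macrophages, was at 428, 809, 727 and 699 CPM in the C57 and at 265, 108, 167 and 72.7 CPM in the MRL libraries (log2 fold change -2.12 ± 0.39, adjusted p = 0.0165), and C1qc and C1qa had log2 fold changes of -1.79 ± 0.41 (adjusted p = 0.0423) and -1.22 ± 0.29 (adjusted p = 0.0483). Csf1r, the receptor that macrophages need to survive, was at 225, 326, 458 and 386 CPM in C57 and at 187, 94.7, 149.5 and 100.3 CPM in MRL tendons (log2 fold change -1.39 ± 0.29, adjusted p = 0.0273). Lyve1, a hyaluronan receptor of lymphatic endothelium and of a resident macrophage subset, was at 203, 126, 241 and 347 CPM in C57 against 44.1, 36.7, 81.9 and 26.7 CPM in MRL (log2 fold change -2.27 ± 0.4, adjusted p = 0.0136). Each of these 5 was lower in every MRL tendon, whereas the F4/80 gene Adgre1 was at 52.4, 104, 152 and 83.3 CPM in the C57 and at 91.6, 30.2, 47.1 and 33.7 CPM in the MRL libraries, with BI-270 among the C57 values (log2 fold change -0.95 ± 0.4, adjusted p = 0.213). Without BI-181, Mrc1 (-1.12, adjusted p = 0.0482), the mannose receptor, was called and C1qa and C1qc were not. A call was no longer made for C1qb without BI-183, BI-185 or BI-272 (adjusted p from 0.0507 to 0.0598), for C1qc without any C57 library, BI-272 or BI-274 (adjusted p from 0.0533 to 0.12) and for C1qa without any C57 library, BI-272, BI-274 or BI-275 (adjusted p from 0.0519 to 0.133). Leaving out 1 library ended the call for Csf1r without BI-183, BI-184, BI-185, BI-272, BI-274 or BI-275 (adjusted p from 0.0521 to 0.0843) and for Lyve1 without BI-272 (adjusted p = 0.0557).

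Other immune lists held few edgeR calls, where 1.55% of all tested genes were called higher and 1.88% lower. No member of the neutrophil, mast cell, T and NK cell or B and plasma cell lists was called by edgeR, whereas DESeq2 called 2 mast cell genes, 1 T and NK cell gene and 1 B and plasma cell gene lower in MRL, and 16 of 18 T and NK cell genes were below the filter on low counts. Cma1, a mast cell chymase, was at 31.2, 120.3, 5.67 and 48.2 CPM in C57 and at 0, 0.596, 17.1 and 0.616 CPM in MRL tendons, with BI-274 among the C57 values and the other MRL tendons near 0 (log2 fold change -3.48 ± 1.61, adjusted p = 0.264). S100a8, a neutrophil alarmin, was at 3.26, 1.4, 1.85 and 1.1 CPM in C57 against 1.2, 4.08, 2.22 and 21 CPM in MRL (log2 fold change 1.9 ± 0.87, adjusted p = 0.245). Of the interferon-stimulated list, 35 genes were tested with a median of -0.51 (-0.68 without BI-181), by edgeR Ifi202b was called higher (DESeq2 called 1 higher and 6 lower in all) and its neighbour Ifi205 lower, being at 33, 38.7, 25.5 and 40.8 CPM in the C57 and at 2.78, 2.48, 11.6 and 9.86 CPM in the MRL libraries (log2 fold change -2.37 ± 0.51, adjusted p = 0.0309). H2-DMb2, which loads peptides onto MHC class II, was at 2.09, 3.81, 5.81 and 2.06 CPM in C57 and at 39.1, 9.58, 10.9 and 20.3 CPM in MRL tendons (log2 fold change 2.53 ± 0.55, adjusted p = 0.0321), the only edgeR call of 9 class II genes tested, of which DESeq2 called 2 higher and 0 lower. Of the genes for the proteins in the study's serum panel, 24 were tested. Of these 24, 19 had positive fold changes, with a median of 1.05 (1.07 without BI-181). By edgeR Mmp3 and the chemokine Ccl5 were called higher, whereas DESeq2 called 3 higher and 1 lower. These are RNA values of tendon tissue, while the study's panel measured protein in serum. There the study reports CCL5 higher in C57 and no significant strain difference for MMP-3. Ccl5 was at 3.13, 3.24, 2.9 and 2.28 CPM in C57 against 13.1, 14.4, 4.85 and 44.8 CPM in MRL (log2 fold change 2.74 ± 0.61, adjusted p = 0.0355). Ifi205, H2-DMb2 and Ccl5 lost their calls without BI-181. With 1 library fewer, no call was made for Ifi205 without any C57 library, BI-270 or BI-272 (adjusted p from 0.0511 to 0.0867), for H2-DMb2 without BI-181, BI-183, BI-185, BI-270 or BI-275 (adjusted p from 0.0591 to 0.0977) and for Ccl5 without any C57 library, BI-272 or BI-275 (adjusted p from 0.0568 to 0.106). By leaving out 1 library the size moved by over 1.5 times, to a log2 fold change of 1.95 for Ccl5 without BI-275.

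Among cell cycle genes most fold changes were positive. EdgeR called 1 and 0 of the S phase and G2/M genes higher in MRL, where 1.55% of all tested genes were called higher. DESeq2 called 6 and 3 higher, where it called 575 of 26473 genes with a p-value higher in MRL. Of 43 S phase genes 38 had positive fold changes (median 0.83), as had 48 of 54 G2/M genes (median 0.88), where 45.6% of all tested genes did. The S phase sums were 783, 1040.4, 1259.8 and 780.3 CPM in the C57 libraries and 1437, 1732, 1145 and 2322 CPM in the MRL libraries, and the groups overlapped. Mcm5, of the replicative helicase, was at 21.2, 23.9, 24.9 and 13.3 CPM in the C57 and at 49, 61, 37.1 and 60.3 CPM in the MRL libraries and was the only S phase call by edgeR, where DESeq2 made 6 (log2 fold change 1.32 ± 0.25, adjusted p = 0.0201). Without BI-181 the medians were 0.68 and 0.73. Ccnd1, cyclin D, was at 17, 25.2, 40.7 and 14.3 CPM in C57 and at 112, 87.6, 35.8 and 79.5 CPM in MRL tendons, called but with the lowest MRL value inside the C57 range (log2 fold change 1.7 ± 0.4, adjusted p = 0.048). The arrest gene Cdkn1c was at 19.5, 17.3, 8.25 and 21.9 CPM in C57 against 6.51, 2.43, 5.44 and 5.1 CPM in MRL (log2 fold change -1.78 ± 0.41, adjusted p = 0.0444), while Cdkn1a (p21) was at 206, 198, 254 and 223 CPM in the C57 and at 195, 231, 215 and 186 CPM in the MRL libraries (log2 fold change -0.09 ± 0.16, adjusted p = 0.779). The replication clamp Pcna averaged 57.4 ± 13.4 CPM in C57 tendons and 72.4 ± 32.1 CPM in MRL tendons (SD, n = 4 each), with a log2 fold change of 0.33 ± 0.3 (adjusted p = 0.565). Trp53 averaged 59.1 ± 7.67 CPM in C57 tendons and 76.4 ± 10.9 CPM in MRL tendons (SD, n = 4 each), with a log2 fold change of 0.37 ± 0.17 (adjusted p = 0.247). Rb1, Foxo3 and Bcl2 had log2 fold changes of -0.11, 0.09 and -0.17 and none was called. Cdkn2a and the chemokine Cxcl9 were below the filter. In refits on 7 libraries the call ended for Mcm5 without BI-183, BI-185 or BI-272 (adjusted p from 0.0507 to 0.0634), for Ccnd1 without BI-181, BI-183, BI-185, BI-270, BI-272 or BI-275 (adjusted p from 0.08 to 0.122) and for Cdkn1c without BI-181, BI-183, BI-185 or any MRL library (adjusted p from 0.0649 to 0.126).

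By edgeR, 3 further lists held a single call each, where 3.43% of all tested genes were called. Npas2, a clock transcription factor, was at 19.5, 19.7, 23.2 and 17.3 CPM in C57 and at 2.53, 3.53, 2.18 and 2.86 CPM in MRL tendons (log2 fold change -2.84 ± 0.29, adjusted p = 0.000925), the only call by either tool of 16 clock genes (median -0.29, and -0.2 without BI-181). The heat shock gene Hspa1b was at 42.2, 37.1, 39.5 and 46.8 CPM in C57 against 22.1, 21.6, 23.6 and 14.7 CPM in MRL (log2 fold change -1.01 ± 0.2, adjusted p = 0.0252), the only edgeR call of 18 immediate early and heat shock genes, of which DESeq2 called 2 higher and 1 lower. Pfkfb4, a regulator of glycolytic flux, was at 42.1, 21.3, 33.5 and 25.1 CPM in the C57 and at 15.9, 13.6, 14.5 and 10.5 CPM in the MRL libraries (log2 fold change -1.16 ± 0.27, adjusted p = 0.0416), the only edgeR call of 20 glycolysis genes, of which DESeq2 called 0 higher and 1 lower. Without BI-181 the median of the glycolysis list turned from -0.22 to 0.29. By edgeR no epidermal gene was called (DESeq2 called 2 lower) of 11 tested, of which 7 had positive fold changes (median 0.61), and Krtdap, a keratinocyte gene of the skin over the tendon, was at 57.4, 33.9, 73.7 and 107 CPM in C57 and at 10.9, 39, 7.94 and 10.1 CPM in MRL tendons (log2 fold change -2 ± 0.54, adjusted p = 0.0719). The call of Npas2 held whichever of the 8 libraries was left out. Among the refits, the call disappeared for Hspa1b without any C57 library, BI-270, BI-272 or BI-275 (adjusted p from 0.0509 to 0.0858, log2 fold change -0.83 without BI-275) and for Pfkfb4 without BI-181, BI-184, BI-185 or any MRL library (adjusted p from 0.0741 to 0.114).

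The dependence of the calls on BI-181 was measured by refitting the 7 other libraries. 363 genes were called then, 2.39% of 15205 tested, of which 327 were among the 502 DEG. 175 calls were lost, 34.4% of those higher in MRL and 35.3% of those lower, and 36 were new. Leaving out other libraries lost between 134 calls (BI-274) and 282 calls (BI-185), and in C57 the loss was larger without BI-183 (235) and BI-185 (282) and alike without BI-184 (177). BI-181 had the highest C57 value in 82 of the 275 DEG lower in MRL (29.8%) and in 4387 of all tested genes (30%). The number of calls lost without BI-181 lay inside the range of the other libraries. Of the genes named above, C1rb, R3hdml, Acan, Mmp3, Inhba, Pecam1, Egfl7, Cldn5, Notch3, Sox10, Prx, C1qa, C1qc, Ccnd1, Cdkn1c, Hspa1b, Pfkfb4, Ifi205, H2-DMb2 and Ccl5 were called with BI-181 and not without it, all but Prx with fold changes that had not shrunk by 1.5 times.

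**Figure D4:**
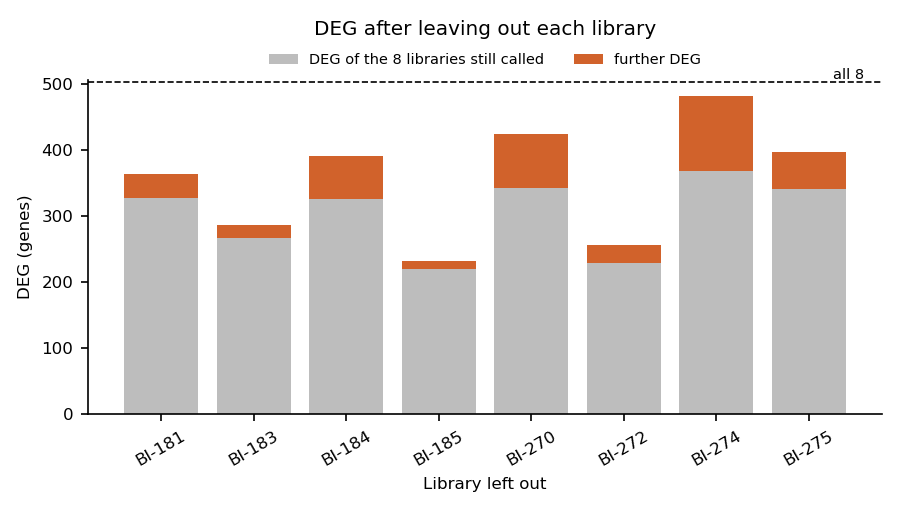
Number of DEG after leaving out each library in turn, split into DEG of the 8-library comparison that were still called (grey) and further ones (orange). The dashed line is the 502 DEG of all 8 libraries. Without BI-181 327 DEG were still called, against 220 without BI-185 and 368 without BI-274.

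In 15 DEG the fold change shrank by more than 1.5 times without BI-181, all of them lower in MRL, whereas leaving out BI-183, BI-184 or BI-185 did so in 0, 1 and 4 DEG, and leaving out BI-275 in 9 DEG, all higher in MRL. Counting moves in either direction, 25 DEG moved that much without BI-181, 18 without BI-274, 18 without BI-275, 16 without BI-272 and 15 without BI-185. Fold changes grew as much in other DEG near 0 in C57, AK157302, C1rb and H2-Q10 among them, where BI-181 held the few C57 counts. Of the 15, 7 lost their call: Actc1, Tnfrsf19, Satb1, Filip1, Gjc3, Prx and Lpin1. Actc1, the actin of heart and developing muscle, was at 23.6, 0.888, 1.06 and 1.99 CPM in C57 against 0, 0, 0 and 0.112 CPM in MRL, which is at least 48.3-fold lower in MRL and at least 9.2-fold without BI-181, and its adjusted p went from 0.0294 to 0.0794. Filip1, a filamin-interacting protein, was at 70.7, 5.77, 5.08 and 12.4 CPM in the C57 and at 0.3, 1.74, 1.68 and 0.448 CPM in the MRL libraries, and its log2 fold change went from -4.48 to -2.89 (adjusted p = 0.082). Satb1, a chromatin organiser, was at 31.2, 4.57, 1.25 and 3.46 CPM in C57 and at 0.128, 0.138, 0.816 and 0.112 CPM in MRL tendons, going from -5.04 to -3.34 (adjusted p = 0.12). Tnfrsf19, a receptor of the TNF family, was at 18.5, 0.761, 1.65 and 2.21 CPM in C57 against 0.0856, 0, 0 and 0 CPM in MRL, and Gjc3, a glial connexin, was at 8.87, 0.634, 0.792 and 2.8 CPM in the C57 and at 0.0428, 0.183, 0.136 and 0.112 CPM in the MRL libraries. Lpin1, a phosphatidate phosphatase of fat and muscle, was at 40.1, 8.69, 15.4 and 12.5 CPM in C57 and at 4.58, 3.94, 6.03 and 2.35 CPM in MRL tendons (log2 fold change -1.53 without BI-181, adjusted p = 0.0955). In each of these genes BI-181 was well above the other C57 tendons, and for Prx, a Schwann cell gene, BI-185 was raised as well. These calls did not hinge on BI-181 alone. Refits without 1 library lost the call for Actc1 without BI-181, BI-185 or any MRL library (adjusted p from 0.0549 to 0.0918), for Tnfrsf19 without BI-181 or any MRL library (adjusted p from 0.0557 to 0.0734) and for Satb1 without BI-181, BI-183, BI-185, BI-270, BI-272 or BI-275 (adjusted p from 0.0712 to 0.121). Not every refit kept the call, which was lost for Filip1 without BI-181, BI-185 or any MRL library (adjusted p from 0.0732 to 0.118), for Gjc3 without BI-181, BI-185 or any MRL library (adjusted p from 0.0807 to 0.113) and for Lpin1 without BI-181, BI-184, BI-185 or any MRL library (adjusted p from 0.0649 to 0.126). BI-274 held the only MRL counts above the floor for Satb1, and BI-272 for Gjc3. Without that library, Satb1 and Gjc3 were at least 70-fold and 22.7-fold lower in MRL.

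The other 8 were called with and without BI-181, and Itga7, Flnc, Dmpk, Isca1, Ablim3, Dll4 and Kcna1 were among them. Itga7, the laminin receptor of muscle fibres, was at 130.3, 15.5, 14.1 and 16.1 CPM in C57 against 0.728, 0.275, 1.09 and 0 CPM in MRL, and its log2 fold change went from -6.34 to -4.83 (adjusted p = 0.0244). Flnc, filamin C of the Z disc, was at 101, 12.4, 13.6 and 11.8 CPM in the C57 and at 2.06, 2.38, 2.54 and 2.41 CPM in the MRL libraries, going from -3.88 to -2.42 (adjusted p = 0.0084). Dmpk, the myotonic dystrophy kinase, was at 235, 60.5, 56.7 and 73.3 CPM in C57 and at 21.6, 24.7, 16.5 and 5.6 CPM in MRL tendons, with -1.89 after leaving BI-181 out. In these muscle genes the other 3 C57 tendons still exceeded all MRL tendons, and the difference was smaller. Ablim3, an actin-binding LIM protein, went from -5.91 to -5.27, and Dll4, a Notch ligand of sprouting vessels, was at 9.06, 2.86, 0.924 and 1.99 CPM in C57 against 0, 0, 0 and 0.056 CPM in MRL. The call of Dll4 held whichever of the 8 libraries was left out. On 7 libraries there was no call for Itga7 without BI-270 or BI-272 (adjusted p from 0.0642 to 0.0807), for Flnc without any MRL library (adjusted p from 0.0595 to 0.0791) and for Dmpk without BI-183, BI-185 or any MRL library (adjusted p from 0.0516 to 0.0858). Some refits on 7 libraries made no call for Isca1 without any MRL library (adjusted p from 0.0625 to 0.0791) and for Ablim3 without BI-185 or BI-272 (adjusted p from 0.0515 to 0.057). Moves of over 1.5 times from 1 library were to a log2 fold change of -1.41 for Isca1 without BI-181 and at least 13.5-fold for Dll4 without BI-181.

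**Figure D5:**
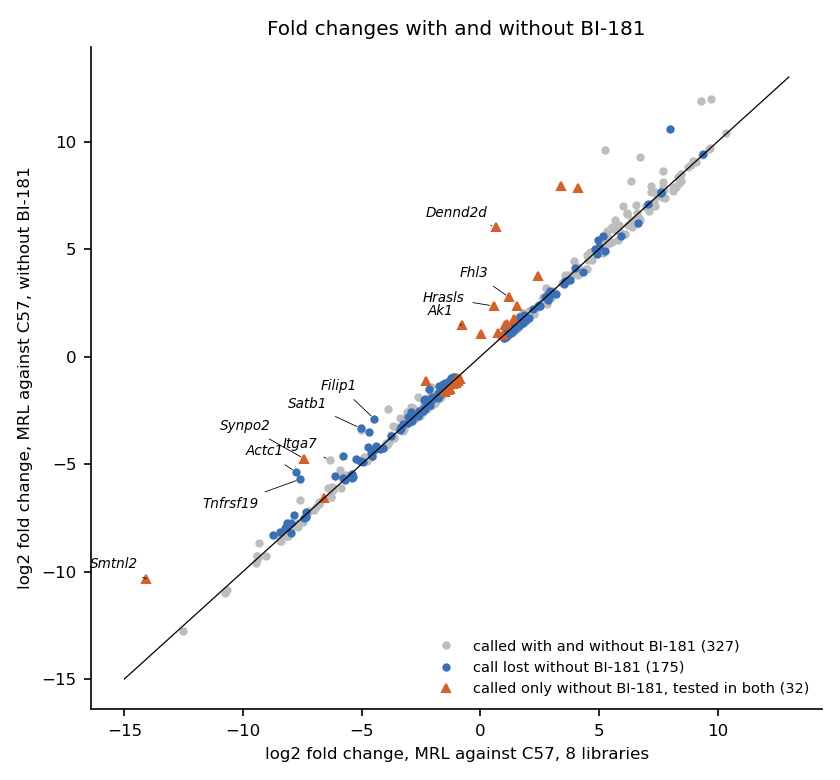
Log2 fold change (MRL against C57) without BI-181 against that of all 8 libraries, for genes called in either. Points on the line did not move, labelled genes are among those moved most, such as Ak1, which is -0.79 with and 1.46 without BI-181. Fold changes of genes at 0 in a strain are fitted values and no bounds.

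Other genes were called only without BI-181. 15 of these 36 were higher in MRL and 21 lower, and 4 had not passed the filter before. Ak1, an adenylate kinase abundant in muscle, was at 1294, 99.2, 77.7 and 66.3 CPM in the C57 and at 148, 263, 178 and 304 CPM in the MRL libraries, and its log2 fold change turned from -0.79 (adjusted p = 0.695) to 1.46 (adjusted p = 0.0306). Hrasls, a phospholipid acyltransferase, was at 52.7, 6.03, 6.14 and 2.5 CPM in C57 and at 18.7, 33.6, 17.6 and 30.3 CPM in MRL tendons and went from 0.57 to 2.35 (adjusted p = 0.0235). Fhl3, a LIM domain protein of muscle, was at 11.3, 0.952, 1.45 and 1.55 CPM in C57 against 7.45, 7.75, 6.94 and 13.4 CPM in MRL and went from 1.22 to 2.75 (adjusted p = 0.0222). Dennd2d, an activator of Rab GTPases, was at 4.63, 0.0634, 0 and 0 CPM in the C57 and at 2.78, 1.74, 1.13 and 1.74 CPM in the MRL libraries. Ang2, a ribonuclease of the angiogenin family, was at 0.587, 0, 0 and 0 CPM in C57 and at 0.814, 2.34, 0.862 and 2.52 CPM in MRL tendons, and H2-Bl, an MHC class I gene, was at 0.326, 0, 0 and 0 CPM in C57 against 2.31, 1.51, 1.68 and 0.728 CPM in MRL. In these 6 genes every MRL tendon exceeded the 3 other C57 tendons. Smtnl2, a smoothelin-like protein of muscle, was at 453, 14.5, 1.39 and 10.4 CPM in the C57 and at 0 CPM throughout in the MRL libraries, and Synpo2, which binds actin at the Z disc, was at 346, 14.5, 6.99 and 24.9 CPM in C57 and at 0.128, 0.688, 1.32 and 0.112 CPM in MRL tendons. Both were lower in MRL without BI-181 (adjusted p = 0.0224 and 0.0253) and missed the threshold with it (0.14 and 0.053).

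By edgeR the muscle genes themselves were called with neither set of libraries, while DESeq2 called 2 of them lower in MRL with all 8. 18 of 40 passed the filter, all with negative fold changes, and their median went from -9.12 to -4.54 without BI-181 and to -0.08 without BI-181 and BI-183. Myl1, a myosin light chain, was at 11523, 364, 0.66 and 1.33 CPM in C57 against 0.0428, 0.275, 1.32 and 0 CPM in MRL (adjusted p = 0.104), and Des, the muscle filament desmin, was at 2974, 118, 3.1 and 33.2 CPM in the C57 and at 1.46, 3.39, 2.18 and 0.056 CPM in the MRL libraries (adjusted p = 0.0914). Mef2c, a transcription factor of muscle and endothelium, was at 604, 78.2, 70.9 and 101 CPM in C57 and at 50.2, 37.6, 26.4 and 44.8 CPM in MRL tendons, above MRL in every C57 tendon and not called (log2 fold change -2.43 ± 0.7, adjusted p = 0.0926, and 0.0529 without BI-181). When the mean log2 CPM of the muscle list entered the fit as a covariate, 163 genes were called, 155 of the 502 DEG among them. 154 DEG were called with all 8 libraries, without BI-181 and with the covariate. 175 DEG (99 higher and 76 lower in MRL) were called whichever single library was left out.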

How the data were processed

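Whole-number counts per gene symbol were deposited by the authors for 49568 genes, without normalization. Per the labels and methods, single-end reads of 100 bases were trimmed with Trimmomatic 0.36, mapped with STAR 2.5.2b to GRCm38.p5 and counted with featureCounts (Subread 1.5.0p3). Gene annotation, strand setting and the handling of reads that map to several places are not given in the sources used here, so overlapping and antisense genes and near-identical copies are uncertain. The labels name a TruSeq kit and the methods a pre-amplifying low-input kit, and neither names molecular identifiers, so floors cover counting error only.

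The 8 injured libraries were fitted alone in edgeR 4.0.16 (R 4.3.3): expression filter, TMM, robust quasi-likelihood test, Benjamini-Hochberg adjustment over all tested genes. The uninjured columns were not used. Standard errors were computed as the fold change over the root of F. DESeq2 1.42.0 was an alternative, beside other scalings, filters, thinning, a muscle covariate and leaving out each library. Leaving out BI-181 and BI-183 together and summing near-identical copies were added after seeing the data. The scripts were tested on simulated data.

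Copies were sought with blastn among GENCODE M21 transcripts. Positions and classes are from GENCODE M21 (GRCm38). Genes named were the 12 largest non-overlapping differences in each direction with a mean of at least 5 CPM, the 6 smallest adjusted p in each direction, calls in each list (or its most abundant members), genes the study names and the largest shifts without BI-181, and a few genes that meet these rules are not reported here. The comparison, members and lists were chosen with earlier results of these data known. Lists were described by counts and medians and given no test.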

Additional observations from a re-analysis of the deposited data

Results flagged for a closer look

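In groups of 4, a library was set aside for a closer look where its gap to the nearest other library as a share of the group's range (log2 scale) exceeded Dixon's critical value for 4 samples. For groups not chosen by their values, chance does this in about 1 of 20. That rate does not apply here, because some genes were named for their shift without BI-181 and groups with 3 libraries at 0 qualify by construction. It happened in 21 of 242 groups, with BI-181 the library in 10 of them. In the C57 library BI-181, Ak1 was at 1294 CPM with the others at 66.3 to 99.2, Ang2 was at 0.587 CPM with the others at 0 and Col11a1 was at 25.3 CPM with the others at 83.4 to 97.1. In BI-181 also, Dennd2d was at 4.63 CPM with the others at 0 to 0.0634, Fhl3 was at 11.3 CPM with the others at 0.952 to 1.55 and Flnc was at 101 CPM with the others at 11.8 to 13.6. For the same library BI-181, H2-Bl was at 0.326 CPM with the others at 0, Itga7 was at 130.3 CPM with the others at 14.1 to 16.1 and Mef2c was at 604 CPM with the others at 70.9 to 101. For the same library BI-181, the summed glycolysis list was at 23741 CPM with the others at 5182 to 6571. In the C57 library BI-183, Foxo3 was at 20.9 CPM with the others at 12.7 to 13.3. In the C57 library BI-184, Mcam was at 4.95 CPM with the others at 35.9 to 52.7, Notch3 was at 2.31 CPM with the others at 14.2 to 17.1 and the summed blood endothelium list was at 225 CPM with the others at 416 to 446. In the C57 library BI-185, Hal was at 1.1 CPM with the others at 0, Ifi202b was at 0.368 CPM with the others at 0 and R3hdml was at 0.295 CPM with the others at 0. In the MRL library BI-270, Tnnt3 was at 1.76 CPM with the others at 0.321 to 0.363. In the MRL library BI-274, Satb1 was at 0.816 CPM with the others at 0.112 to 0.138. In the MRL library BI-275, Fhl3 was at 13.4 CPM with the others at 6.94 to 7.75 and Nnt was at 13.9 CPM with the others at 44.4 to 50.7.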

How the results depend on the processing

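The 502 calls became 1490 (575 higher, 915 lower) with DESeq2, 163 (67 higher, 96 lower) with the muscle covariate, 112 (63 higher, 49 lower) without BI-181 and BI-183, which leaves 2 C57 libraries, and 350 (140 higher, 210 lower) with copies summed. The last 2 were chosen after seeing the data, and the causes of these shifts were not tested. Leaving out 1 library gave 231 to 481 calls, 124 to 233 of them higher and 107 to 248 lower, the fewest without BI-185. Under DESeq2 size factors, upper-quartile factors, total counts, no filter, 10 counts in 4 libraries, no fold threshold, thinning and removal of muscle genes, the count was 494 to 566. The log2 fold change of Ak1 ran from -1.14 without BI-185 to 1.46 without BI-181. No paired analysis was possible because the injured libraries carry no replicate numbers that both strains share. The fit had 4 libraries per strain and a biological coefficient of variation of 0.503. By edgeR's quasi-likelihood test, 3103 of 14626 genes had an unadjusted p under 0.05, a number that includes genes expected there by chance. Leaving out any 1 library ended at least 134 calls. Why genes fell short of the threshold was not tested.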

Other observations

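Other called genes, chosen after their values were seen, extend the description. Pdia4, a disulphide isomerase of the endoplasmic reticulum, was at 104, 147, 163 and 141 CPM in C57 against 327, 339, 297 and 369 CPM in MRL (log2 fold change 1.26 ± 0.18, adjusted p = 0.00554), and Hyou1, a chaperone of the same compartment, was at 5.67, 11.5, 30.9 and 11.3 CPM in the C57 and at 59.7, 62.6, 52.5 and 55.6 CPM in the MRL libraries (log2 fold change 1.96 ± 0.44, adjusted p = 0.0367). Pycr1, the last enzyme of proline synthesis, was at 18.7, 24.7, 36.2 and 13.6 CPM in C57 and at 66.6, 122, 91.3 and 94.3 CPM in MRL tendons (log2 fold change 2 ± 0.31, adjusted p = 0.00822), and Asns, asparagine synthetase, was at 16.5, 49.7, 44.2 and 26 CPM in C57 against 121, 105, 78.1 and 164 CPM in MRL (log2 fold change 1.78 ± 0.36, adjusted p = 0.0256). Every MRL tendon exceeded every C57 tendon in these 4 genes. Tslp, an epithelial and stromal cytokine, was at 8.15, 4.7, 5.34 and 5.74 CPM in the C57 and at 54.9, 112, 21.5 and 101 CPM in the MRL libraries (log2 fold change 3.59 ± 0.48, adjusted p = 0.00394), Bdnf, a neurotrophin, was at 1.83, 2.28, 1.98 and 2.72 CPM in C57 and at 9.72, 8.02, 8.12 and 7.45 CPM in MRL tendons (log2 fold change 1.92 ± 0.37, adjusted p = 0.0207), and Artn, the ligand of the receptor encoded by Gfra3, was at 1.63, 1.78, 1.19 and 0.515 CPM in C57 against 7.88, 11.1, 6.58 and 6.83 CPM in MRL (log2 fold change 2.66 ± 0.5, adjusted p = 0.0185). Clec11a, a growth factor for skeletal progenitors, was at 44.6, 93.3, 57.3 and 70 CPM in the C57 and at 193, 442, 254 and 176 CPM in the MRL libraries (log2 fold change 2.01 ± 0.34, adjusted p = 0.0117). The calls of Pdia4, Pycr1, Tslp and Clec11a held whichever of the 8 libraries was left out. The call was lost for Hyou1 without BI-183, BI-185 or any MRL library (adjusted p from 0.0567 to 0.111), for Asns without BI-185, BI-272 or BI-275 (adjusted p from 0.0507 to 0.0858) and for Bdnf without BI-183, BI-184, BI-185 or BI-272 (adjusted p from 0.0509 to 0.0621). A call was no longer made for Artn without BI-184 or BI-272 (adjusted p from 0.0509 to 0.0635). A single library moved the difference by over 1.5 times, to a log2 fold change of 2.6 for Hyou1 without BI-184.

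On the other side, Sfrp4, a secreted Wnt antagonist, was at 74.9, 151, 125 and 139 CPM in C57 and at 5.01, 1.74, 17.3 and 5.15 CPM in MRL tendons (log2 fold change -4.07 ± 0.62, adjusted p = 0.00799). Gpx3, an extracellular glutathione peroxidase, was at 1172, 1029, 1886 and 2006 CPM in C57 against 162, 279, 153 and 216 CPM in MRL (log2 fold change -2.91 ± 0.31, adjusted p = 0.00102), and Mfap5, a microfibril glycoprotein, was at 334, 735, 452 and 452 CPM in the C57 and at 67.7, 105, 172 and 172 CPM in the MRL libraries (log2 fold change -1.93 ± 0.35, adjusted p = 0.0151). Scara5, a ferritin receptor of fibroblasts, was at 108, 134, 118 and 232 CPM in C57 and at 34.6, 12.8, 35 and 6.61 CPM in MRL tendons (log2 fold change -2.73 ± 0.51, adjusted p = 0.0181), Cd248, endosialin, was at 168, 429, 153 and 279 CPM in C57 against 7.11, 34.6, 56.6 and 11.2 CPM in MRL (log2 fold change -3.23 ± 0.66, adjusted p = 0.0281), and Myoc, myocilin, was at 676, 1003, 362 and 1363 CPM in the C57 and at 57.4, 16.5, 49.2 and 1.57 CPM in the MRL libraries (log2 fold change -4.77 ± 0.98, adjusted p = 0.0327). Flt4, a receptor of lymphatic endothelium, was at 3.52, 1.14, 6.8 and 3.98 CPM in C57 and at 0, 0.0459, 0 and 0 CPM in MRL tendons, at least 27.1-fold lower in MRL, and Mmrn1, a multimerin of lymphatic endothelium and platelets, was at 1.89, 1.65, 6.07 and 5.01 CPM in C57 against at 0 CPM throughout in MRL, at least 25.6-fold lower. The strains did not overlap in any of these 8 genes, as in 499 of the 502 DEG, and all 8 were called without BI-181. The calls of Sfrp4, Gpx3, Flt4 and Mmrn1 held whichever of the 8 libraries was left out. Leaving out 1 library ended the call for Mfap5 without BI-272 (adjusted p = 0.0645), for Scara5 without BI-185 or BI-272 (adjusted p from 0.0592 to 0.0634) and for Cd248 without BI-183, BI-185, BI-272 or BI-275 (adjusted p from 0.0646 to 0.0853). With 1 library fewer, no call was made for Myoc without BI-183, BI-185, BI-270, BI-272 or BI-274 (adjusted p from 0.0598 to 0.103). The size of the difference also rested on 1 library, being a log2 fold change of -4.9 for Sfrp4 without BI-274.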
